A study of Homo sapiens with 6 samples.

Results

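The guides described here are the 100 rows labelled dummyguide in the count table of a pooled CRISPR screen. They were chosen by that label alone, and they are 100 of the 71626 guides in the table. Their identifiers run without a gap from HZD_CTRLd_14096 to HZD_CTRLd_14195, and the 100 rows with the CTRLd prefix are the same 100 rows. What the label stands for is not stated, so the guides are named here by it. HAP1, the cell line used, is human and near-haploid and traces back to a chronic myeloid leukaemia. Of the 6 samples in the table, 2 were of the guide library, 2 of parental cells and 2 of cells with a SETD2-mutant genotype, all labelled HAP1, and SETD2 is the enzyme that trimethylates lysine 36 of histone H3. Each line was infected with guide virus at a multiplicity of infection of 0.7, divided into replicates after infection and kept under puromycin for 12 doublings. The labels do not state how the library samples were taken or how many clones the mutant line represents.

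In a pooled knockout screen each cell carries a guide RNA that directs the Cas9 nuclease to a DNA site, and the guide sequence in genomic DNA serves as the barcode of that cell and its descendants. A guide that harms growth becomes rarer in the pool and a guide that favours growth becomes more common. Screens of this kind usually carry control guides, some that match no genomic site and so leave DNA uncut and others that cut a site of little consequence, and these set the level against which other guides are read. Because guides compete for a fixed number of reads, the loss of guides against essential genes raises the share of every other guide. The count table pairs guide identifiers with gene labels, and guide sequences were not analysed here.

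The dummyguide guides started from an even and well covered position. In the library they had a median of 403 counts in replicate 1 and 355 in replicate 2, with a range of 162 to 847 and of 141 to 783. None of the 100 had a count of 0 in any sample, and the smallest count was 72, in SETD2-mutant replicate 2. The most abundant library members were HZD_CTRLd_14169, with 847 and 783 counts, and HZD_CTRLd_14186, with 767 and 685 counts. The least abundant were HZD_CTRLd_14192, with 162 and 150 counts, and HZD_CTRLd_14152, with 174 and 141 counts. Over all guides the library median was 466 and 421 counts. The SD of the log2 count was 0.49 and 0.48 for dummyguide guides against 0.87 and 0.87 for all guides. The 1536 guides with a HZD_CTRL identifier, which are assigned to 73 genes, were close to the dummyguide guides in the library, with medians of 411 and 367 counts and an SD of 0.55 and 0.53.

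As a set, the dummyguide guides took a larger share of the reads in every cell sample than in either library sample. Their share of all counts was 0.107% in both library replicates (95% exact binomial intervals of 0.106% to 0.108%). In parental cells it was 0.183% (0.182% to 0.184%) and 0.177% (0.176% to 0.179%). In SETD2-mutant cells it was 0.200% (0.199% to 0.202%) and 0.202% (0.201% to 0.204%). The 4 cell samples were therefore 1.66 to 1.89 times the library mean, and the parental and SETD2-mutant values did not overlap. Total counts ran from 25082426 in SETD2-mutant replicate 1 to 38428425 in library replicate 1, and the intervals cover counting error only. With 2 samples in each group an exact permutation test cannot give a p below 0.333, so the shares were not tested. Over the same samples the share of 506 guides against ribosomal proteins, which every growing cell needs, stood at 0.178 to 0.200 times its library level. The share of the 1536 guides with a HZD_CTRL identifier stood at 1.02 to 1.04 times its library level. That of 760 guides of genes with a GPR symbol stood at 1.08 to 1.15 times. What raised the dummyguide share beyond these sets was not tested.

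Parental cells against the library ask how each guide fared over the screen in the parental line. The median dummyguide guide was 1.62 times as abundant in parental cells as in the library, a log2 change of 0.69 where all 71570 guides tested had a median of 0.015. By replicate the medians were 0.65 and 0.74 relative to the library mean. Of the 100 guides, 94 lay above 0, and edgeR's quasi-likelihood test with Benjamini-Hochberg adjustment over all guides tested called 68 higher and 1 lower at an adjusted p below 0.05. The background was 19.0% of all guides called higher and 21.2% called lower. Both parental samples lay above both library samples for 89 guides, against a background of 39.1%, and below them for 3 guides, against 39.1%. DESeq2 called 76 higher, against 23.1% of all guides, and 1 lower, against 25.3%. Fewer dummyguide guides were called higher by edgeR when either library replicate was left out, and the share of all guides called in those fits is not given. The median stayed between 0.65 and 0.74 when each of the 6 samples was left out.

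The middle of the set is shown by the guides nearest its median. HZD_CTRLd_14146 had 8.55 and 8.40 CPM in the library and 13.6 and 13.8 CPM in parental cells, where CPM are counts per 1000000 after scaling by TMM factors, which align the samples on the bulk of the guides. HZD_CTRLd_14135 had 10.6 and 10.5 CPM in the library and 15.2 and 19.0 in parental cells. Both were called higher by edgeR, with changes of 0.69 (limma SE 0.164, adjusted p = 0.0113) and 0.69 (SE 0.168, adjusted p = 0.0125). Their samples did not overlap between the groups, but both calls depended on the setting. With GPR guides as the scale neither was called (adjusted p = 0.0553 and 0.0534). HZD_CTRLd_14146 lost its call without library replicate 1 (adjusted p = 0.130) and without library replicate 2 (0.143), and HZD_CTRLd_14135 without library replicate 1 (0.0915), library replicate 2 (0.0972) or parental replicate 2 (0.0574).

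One guide stood far above the others in parental cells. HZD_CTRLd_14117 had 17.1 and 17.5 CPM in the library, 101 and 89.9 CPM in parental cells, and 27.4 and 29.9 CPM in SETD2-mutant cells. The parental samples lay far above the others, and the next highest level of any dummyguide guide in any sample was 48.0 CPM, for HZD_CTRLd_14169 in parental replicate 1. Its change of 2.46 (limma SE 0.105, edgeR adjusted p = 1.29e-05) was larger than that of 99.9% of all guides tested. This guide alone held 5.47% and 5.01% of the dummyguide counts in parental cells, against 1.61% and 1.65% in the library. The next members were HZD_CTRLd_14116 at 1.23, HZD_CTRLd_14126 at 1.22 and HZD_CTRLd_14109 at 1.17 (edgeR adjusted p = 0.00047, 0.000498 and 0.00031). HZD_CTRLd_14126, for example, rose from 7.31 and 8.05 CPM in the library to 17.9 CPM in both parental samples.

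At the other end, 1 of the 100 guides was called lower in parental cells. HZD_CTRLd_14141 had 12.3 and 11.3 CPM in the library and 6.90 and 4.35 CPM in parental cells. Its samples did not overlap between the groups, and its change was −1.06 (limma SE 0.25, edgeR adjusted p = 0.0104). The call was lost without library replicate 1, where the change was −0.998 (adjusted p = 0.0533). The next lowest members were not called: HZD_CTRLd_14145 at −0.38 (adjusted p = 0.263), HZD_CTRLd_14176 at −0.29 (0.551) and HZD_CTRLd_14106 at −0.13 (0.681). The last of these turned to 0.036 without parental replicate 1.

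SETD2-mutant cells against the library put the same question to the mutant line. The median dummyguide guide was 1.84 times as abundant as in the library, a log2 change of 0.88 against 0.023 for all guides tested, and the replicate medians were 0.87 and 0.92. Here too 94 of 100 guides lay above 0. EdgeR called 84 guides higher, against a background of 22.2%, and 0 lower, against 23.8%. At an unadjusted p under 0.05 there was 1 lower guide by edgeR, against 19530 of all 71570 guides tested. DESeq2 called 87 higher, against 26.0% of all guides, and 1 lower, against 27.8%, after adjustment. Both SETD2-mutant samples lay above both library samples for 93 guides, against 39.7% of all guides, and below them for 4, against 39.2%. This comparison and the parental one share their library samples, so their values are given side by side without a measure of overlap.

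HZD_CTRLd_14156 was the highest member in the mutant line. It had 12.4 and 13.5 CPM in the library, 24.9 and 23.9 CPM in parental cells and 46.1 and 45.0 CPM in SETD2-mutant cells, with no overlap between any of the 3 groups. Its change from the library was 1.82 (limma SE 0.114, edgeR adjusted p = 2.59e-05) in SETD2-mutant and 0.91 (adjusted p = 0.000477) in parental cells. HZD_CTRLd_14152, one of the 2 rarest in the library, followed at 1.59 (adjusted p = 0.0021), with 4.49 and 4.03 CPM in the library against 9.67 and 15.9 CPM in SETD2-mutant cells. Its mutant replicates lay well apart. HZD_CTRLd_14126 stood at 1.55 (adjusted p = 0.000147) and HZD_CTRLd_14168 at 1.51 (adjusted p = 0.000108).

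The lowest members in the mutant line were not called in this comparison. HZD_CTRLd_14143 had 7.98 and 7.74 CPM in the library and 3.50 and 6.08 CPM in SETD2-mutant cells, a change of −0.70 (edgeR adjusted p = 0.0703). It was called at −1.17 (adjusted p = 0.00859) without SETD2-mutant replicate 2. HZD_CTRLd_14176 had 4.80 and 4.91 CPM in the library and 4.02 and 2.13 CPM in SETD2-mutant cells, a change of −0.67 (adjusted p = 0.165). It was called at −1.19 (adjusted p = 0.0181) without SETD2-mutant replicate 1. In both guides 1 mutant replicate was far below the other, and it was a different replicate in each. HZD_CTRLd_14106 stood at −0.41 (adjusted p = 0.173) and HZD_CTRLd_14164 at −0.34 (adjusted p = 0.130).

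The dummyguide guides were set beside 2 sets of guides that carry a gene assignment. These were the 1536 CTRL guides, whose purpose is not stated, and the 760 guides of 76 genes with a GPR symbol, a family of mostly orphan G protein-coupled receptors. In parental cells the median change was 0.69 for dummyguide, 0.01 for CTRL and 0.14 for GPR guides. In SETD2-mutant cells it was 0.88, 0.05 and 0.09. Called higher were 68 of 100 dummyguide, 266 of 1536 CTRL (17.3%) and 145 of 760 GPR guides (19.1%) in parental cells. In SETD2-mutant cells the counts were 84 of 100, 318 of 1536 (20.7%) and 177 of 760 (23.3%). Called lower in parental cells were 1 dummyguide guide, 19.0% of CTRL and 11.7% of GPR guides, and in SETD2-mutant cells 0 dummyguide guides, 19.1% and 15.4%. CTRL and GPR guides were thus called higher at a share near that of all guides. GPR guides were called lower less often than the background of 21.2% and 23.8%, and dummyguide guides less often still. The guides of a set share their samples and are not replicates, so no p is given for these set differences.

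The same gap appeared at the level of whole genes. None of the 73 CTRL genes and none of the 76 GPR genes had a median over its guides as high as the dummyguide median in either comparison with the library. The highest were SLFN11 among CTRL genes (0.65) and GPR143 among GPR genes (0.57) in parental cells, and ZNF516 (0.71) and GPR143 (0.71) in SETD2-mutant cells. These genes were picked out after their values were seen. Of the 7090 gene labels with 3 or more guides, 72 reached the dummyguide median in parental cells and 20 in SETD2-mutant cells. Restricting each set to guides with a mean library count of 156 to 815, the dummyguide range, gave medians of 0.01 for 1480 CTRL guides and 0.13 for 650 GPR guides in parental cells. The same restriction gave 0.05 and 0.07 in SETD2-mutant cells.

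The lower edge differed as well. In parental cells 11.9% of CTRL guides and 6.45% of GPR guides lay below the lowest dummyguide guide, against 13.8% of all other guides. In SETD2-mutant cells 18.8% and 16.7% did, against 22.7%. The parental lower edge is HZD_CTRLd_14141 alone, at −1.06 where the next member stood at −0.38. Above the highest dummyguide guide lay 1 CTRL and 2 GPR guides in parental cells, against 0 and 1 in the mutant line. The parental upper edge is HZD_CTRLd_14117 alone, at 2.46 where the next member stood at 1.23. The 95th percentile of the dummyguide guides, which leaves 5% of them above, stood at 1.17 for the parental line. Above it lay 1.82% of CTRL and 4.08% of GPR guides, against 2.38% of all other guides. For the mutant line it stood at 1.43, with 0.716%, 0.921% and 0.602% above. Guides against 51 cytosolic ribosomal proteins, the far end of the scale, had a median of −3.40 (parental) and −3.98 (SETD2-mutant), and 89.5% and 92.7% of the 506 lay below every dummyguide guide.

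Between the lines, dummyguide guides were on the whole slightly higher in SETD2-mutant than in parental cells. The median log2 change was 0.24, against 0.00013 for all guides, 0.03 for CTRL and −0.04 for GPR guides, and it was 0.15 and 0.21 when mutant and parental samples with the same replicate number were set against each other. EdgeR called 17 of 100 guides higher, against a background of 11.5%, and 4 lower, against 12.8%. Replicates of a line were divided after infection, so the adjusted p-values do not cover variation between infections or clones. Both mutant samples lay above both parental samples for 47 guides, against 29.4% of all guides, and below them for 17, against 29.8%. The difference in SETD2-mutant minus parental was above 0 in both replicate numbers for 52 guides, below 0 in both for 22 and mixed for 26. The median depended on the scale, at 0.32 with GPR guides, 0.0928 with dummyguide guides and 0.0354 with dummyguide guides other than HZD_CTRLd_14117, and it was 0.18 without parental replicate 2. DESeq2 called 28 dummyguide guides higher, against 17.7% of all guides by that tool, and 9 lower, against 18.8%. With dummyguide scaling edgeR called 11 higher, against 6.86%, and 9 lower, against 18.7%.

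Among the guides higher in SETD2-mutant cells, HZD_CTRLd_14178 led. It had 11.1 and 11.5 CPM in the library, 12.3 and 11.0 CPM in parental cells and 28.6 and 25.3 CPM in SETD2-mutant cells. The parental samples lay at the library level and both mutant samples lay above, for a difference of 1.21 (limma SE 0.148, edgeR adjusted p = 0.00184). HZD_CTRLd_14141, the guide called lower in parental cells, had 11.4 and 14.3 CPM in SETD2-mutant cells, near its library level, and differed by 1.19 (SE 0.25, adjusted p = 0.0130). HZD_CTRLd_14152 differed by 1.10 (adjusted p = 0.0214) and HZD_CTRLd_14145 by 1.03 (adjusted p = 0.0212). These last calls each depended on single samples. HZD_CTRLd_14141 lost its call without SETD2-mutant replicate 2 (adjusted p = 0.0528). HZD_CTRLd_14152 lost it without SETD2-mutant replicate 2, parental replicate 1 or parental replicate 2 (0.0587, 0.0825 and 0.0918), and HZD_CTRLd_14145 without the same samples (0.0530, 0.0997 and 0.0940). With SETD2-mutant replicate 2 left out, the changes of HZD_CTRLd_14152 and HZD_CTRLd_14145 were 0.70 and 0.60.

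Of the 4 guides lower in SETD2-mutant cells, HZD_CTRLd_14117 was the furthest, at −1.73 (limma SE 0.105, edgeR adjusted p = 0.000113), from its high level in parental cells. HZD_CTRLd_14164 had 15.6 and 18.6 CPM in parental and 9.60 and 9.45 CPM in SETD2-mutant cells, a difference of −0.84 (SE 0.162, adjusted p = 0.00988). HZD_CTRLd_14143 had 10.4 and 9.06 CPM in parental cells and stood at −1.01 (SE 0.281, adjusted p = 0.0338). HZD_CTRLd_14116 had 33.5 and 26.5 CPM in parental and 20.1 and 18.8 CPM in SETD2-mutant cells, a difference of −0.63 (SE 0.148, adjusted p = 0.0198). In all 4 guides the samples of the lines did not overlap. The call of HZD_CTRLd_14143 was lost without SETD2-mutant replicate 1 (adjusted p = 0.0526), library replicate 1 (0.0558), library replicate 2 (0.0558), parental replicate 1 (0.127) or parental replicate 2 (0.0820). That of HZD_CTRLd_14116 was lost without SETD2-mutant replicate 2 (0.0632) or parental replicate 1 (0.0719).

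The spread among dummyguide guides was narrow beside other sets and wide beside counting error. In parental cells the SD of the log2 change was 0.42 over dummyguide guides, 0.90 over CTRL, 0.78 over GPR and 1.10 over all guides. In SETD2-mutant cells it was 0.46, 1.03, 0.92 and 1.29. The interquartile ranges, which rest less on guides that fell far, were 0.40, 0.91, 0.78 and 0.95 in parental and 0.56, 0.96, 0.92 and 1.07 in SETD2-mutant cells. Without HZD_CTRLd_14117 the parental SD over dummyguide guides was 0.38. Within the same range of mean library counts the CTRL and GPR guides had an SD of 0.91 and 0.78 in parental and 1.04 and 0.94 in SETD2-mutant cells, so their wider spread was not limited to guides outside the dummyguide range of library counts.

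Replicates of the library barely differed. For dummyguide guides chi-square divided by its degrees of freedom was 1.33 between library replicates, where counting error alone gives about 1, and the SD within the group was 0.09 on the log2 scale. Between the parental replicates the statistic was 14.8 with an SD of 0.24, and between the SETD2-mutant replicates 11.6 with an SD of 0.23. The cell samples thus varied beyond counting error in guides that carry no gene assignment. The statistic was about as large as over all guides, at 14.1 and 12.9. The SD was smaller than over all guides, at 0.32 and 0.39. The median gap between replicates, beyond the set's own offset, was not smaller in parental cells, at 0.254 for dummyguide and 0.242 for all guides. In SETD2-mutant cells it was 0.177 and 0.275. None of the 100 dummyguide guides had a gap of more than 1 log2 unit, while 2697 and 4325 of the 71570 guides tested did. The largest gap of a dummyguide guide was 0.95 in either line.

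Much of what set one dummyguide guide apart from another was shared by the replicates of a line. Each replicate's change was taken from a different library sample, so that no sample entered both sides. Over the 100 guides the Pearson correlation was 0.695 between the parental replicates and 0.739 between the SETD2-mutant replicates, with Spearman's rho at 0.564 and 0.679. Without HZD_CTRLd_14117 the parental value was 0.640. The covariance corresponds to a shared SD of 0.384 (parental) and 0.424 (SETD2-mutant), larger than the within-group SD of 0.24 and 0.23. For CTRL guides the same correlations were 0.875 and 0.871, with shared SDs of 0.853 and 0.944. These correlations are descriptions over guides, which are not independent replicates, and the replicates of a line were divided only after infection.

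Across the lines the agreement was weaker. The parental change from one library sample and the SETD2-mutant change from the other had a mean correlation of 0.359 over the 4 pairings that share no sample, with a range of 0.296 to 0.448, and 0.402 without HZD_CTRLd_14117. CTRL guides gave 0.719, GPR guides 0.593 and all guides 0.774. The shared SD across the lines was 0.285 for dummyguide guides, against 0.815 for CTRL and 0.666 for GPR guides. The difference between the lines also recurred guide by guide. SETD2-mutant minus parental in replicate 1 and in replicate 2 correlated at 0.560 over dummyguide guides (0.494 without HZD_CTRLd_14117), close to 0.546 for CTRL, 0.530 for GPR and 0.598 for all guides. Its shared SD was 0.407 for dummyguide and 0.540 for CTRL guides, so guides without a gene assignment also carried differences between the lines that both replicates showed.

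Abundance in the library was compared with the change as a description. The change of each parental replicate correlated at 0.288 and 0.246 with the level in the library sample that was not used to compute it, and the SETD2-mutant changes at 0.140 and 0.059. Without HZD_CTRLd_14117 these were 0.243 and 0.204 in parental and 0.148 and 0.063 in SETD2-mutant cells. In parental cells CTRL guides gave −0.021 and −0.016, GPR guides 0.012 and 0.069 and all guides −0.059 and −0.048. In SETD2-mutant cells all guides gave −0.046 and −0.044. In levels, the library replicates correlated at 0.966 over dummyguide guides, the parental replicates at 0.893 and the SETD2-mutant replicates at 0.896, while samples of different lines correlated at 0.699 to 0.775. Replicates of a line were therefore more alike in dummyguide levels than samples of different lines, and both were less alike than the library replicates.

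Whether the dummyguide guides are taken as the zero of the scale matters for every other guide, and whether they are a suitable zero was not tested. With TMM factors the dummyguide median was above 0 in all 3 comparisons, and it stayed so with DESeq2 size factors (0.68, 0.87 and 0.24 for parental against library, SETD2-mutant against library and SETD2-mutant against parental), library totals (0.67, 0.87 and 0.25) and GPR guides as the scale (0.47, 0.74 and 0.32). When the summed dummyguide counts set the scale, their scaled sum was equal in all samples by construction, which does not fix their median. The median was then −0.0813, −0.0423 and 0.0928, and all other guides shifted by −0.78, −0.92 and −0.15. The share of all guides called higher in parental cells then went from 19.0% to 1.84% and the share called lower from 21.2% to 65.7%. In SETD2-mutant cells these shares went from 22.2% to 0.774% and from 23.8% to 73.0%. Between the lines they went from 11.5% to 6.86% and from 12.8% to 18.7%. With GPR guides as the scale, 9.99% were called higher and 28.4% lower in parental cells, 15.6% and 27.9% in SETD2-mutant cells, and 15.1% and 10.6% between the lines. With that scale 46 and 73 dummyguide guides were still called higher in parental and SETD2-mutant cells.

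Even on their own scale the dummyguide guides were not all at 0. Against the library 5 were called higher (1.84% of all guides) and 12 lower (65.7%) in parental cells. In SETD2-mutant cells 8 were higher (0.774%) and 9 lower (73.0%). Between the lines 11 were higher (6.86%) and 9 lower (18.7%). A single guide had a visible weight in this scale. Leaving HZD_CTRLd_14117 out of the sum moved the shift of all guides from −0.78 to −0.72 in parental cells and from −0.15 to −0.20 between the lines, with −0.92 and −0.93 in SETD2-mutant cells. On that scale 10 dummyguide guides were called higher (2.19% of all guides) and 9 lower (61.7%) in parental cells, 8 higher (0.764%) and 9 lower (73.2%) in SETD2-mutant cells, and 10 higher (5.84%) and 12 lower (22.0%) between the lines. With TMM factors the mean log2 change over the 100 guides was 0.67 in parental cells, 0.86 in SETD2-mutant cells and 0.19 between the lines. The SD over the guides was 0.42, 0.46 and 0.47. Guides are not replicates of a condition, so no standard error of that mean is given.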

How the data were processed

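The deposited table holds raw counts per guide, whole numbers with no sign of scaling, in 6 columns that each match a sample title. MAGeCK and hg38 are named, without versions, per the submitters' processing notes, and how reads were counted is not given in the sources used here. The members, comparison sets and tests were chosen with earlier results of these data known.

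A guide entered the tests if its library samples averaged at least 30 counts, which held for 71570 of 71626 guides and for all 100 dummyguide guides. With TMM factors as scaling, the counts were fitted over the 6 samples by group with edgeR 4.0.16 in R 4.3.3 (glmQLFit, robust, and glmQLFTest), with p-values adjusted by Benjamini-Hochberg over all guides tested. Standard errors of single guides are those of limma 3.58.1 on log2 CPM with a prior count of 2. Replicate changes and correlations use the same log2 CPM. Spread between replicates of a line, divided from 1 infected culture, may be technical. The adjusted p-values rest on that spread and do not cover variation between separate infections or clones.

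Guides named in the report are the 4 highest and 4 lowest members in each comparison, the 2 most and 2 least abundant in the library and the 2 nearest the parental median. The additional observations list every guide called between the lines, named or not by this rule. The set of ribosomal proteins takes symbols of RPL or RPS with a number and at most an A or X, which leaves out the RPS6K kinases and paralogs that the planned rule on symbol starts would have taken in. None of the 20 identifiers listed in more than 1 row is a dummyguide guide. Alternatives covered scaling, filter, test (DESeq2 1.42.0, limma), samples fitted, a replicate block, the prior count and each sample left out. Scaling without HZD_CTRLd_14117 and results without that guide were chosen after seeing the data.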

Additional observations from a re-analysis of the deposited data

Results flagged for a closer look

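For 21 of the 100 dummyguide guides the change over the screen differed between the lines, by the edgeR test of SETD2-mutant against parental. All values are log2 changes of that comparison. Of all guides tested, 24.3% were called in either direction, so 21 of 100 was not above the background. Called higher and called in each of the 6 fits that leave out a sample were HZD_CTRLd_14178 (1.21), HZD_CTRLd_14194 (0.96), HZD_CTRLd_14156 (0.90), HZD_CTRLd_14195 (0.89), HZD_CTRLd_14168 (0.77), HZD_CTRLd_14121 (0.74), HZD_CTRLd_14125 (0.73) and HZD_CTRLd_14188 (0.55). Of these, HZD_CTRLd_14188 lost its call when the dummyguide guides other than HZD_CTRLd_14117 set the scale (0.35, edgeR adjusted p = 0.0546). Called lower in each of those fits were HZD_CTRLd_14117 (−1.73) and HZD_CTRLd_14164 (−0.84).

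The other 11 guides lost their call in at least 1 of those fits. They were HZD_CTRLd_14141 (1.19), HZD_CTRLd_14152 (1.10), HZD_CTRLd_14145 (1.03), HZD_CTRLd_14189 (0.66), HZD_CTRLd_14098 (0.58), HZD_CTRLd_14167 (0.52), HZD_CTRLd_14179 (0.51), HZD_CTRLd_14101 (0.50) and HZD_CTRLd_14123 (0.49) among the higher guides. The lower guides were HZD_CTRLd_14143 (−1.01) and HZD_CTRLd_14116 (−0.63). Calls lost numbered 3 without SETD2-mutant replicate 1 (edgeR adjusted p of 0.0526 to 0.0771), 9 without SETD2-mutant replicate 2 (0.0528 to 0.0980), 8 without parental replicate 1 (0.0661 to 0.127), 6 without parental replicate 2 (0.0723 to 0.0940), 5 without library replicate 1 (0.0558 to 0.160) and 5 without library replicate 2 (0.0558 to 0.159). Among these 11, HZD_CTRLd_14189, HZD_CTRLd_14098, HZD_CTRLd_14167, HZD_CTRLd_14179, HZD_CTRLd_14101 and HZD_CTRLd_14123 also lost their call under both dummyguide scales, with and without HZD_CTRLd_14117 (edgeR adjusted p of 0.0729 to 0.205).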

How the results depend on the processing

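With dummyguide scaling, which makes their scaled sum equal in all samples, the medians were −0.0813, −0.0423 and 0.0928 (parental against library, SETD2-mutant against library, SETD2-mutant against parental). Called higher were 5, 8 and 11 guides (1.84%, 0.774% and 6.86% of all guides), and 12, 9 and 9 were lower (65.7%, 73.0% and 18.7%). Without HZD_CTRLd_14117 in that scale they were −0.0276, −0.0453 and 0.0354, with 10, 8 and 10 higher (2.19%, 0.764% and 5.84% of all guides) and 9, 9 and 12 lower (61.7%, 73.2% and 22.0%). Since they move all guides alike, these scales also put the guides nearest the parental median below 0, HZD_CTRLd_14146 at −0.0842 and −0.0304 and HZD_CTRLd_14135 at −0.0784 and −0.0249. GPR scaling gave medians of 0.47, 0.74 and 0.32 and 2 guides lower in SETD2-mutant cells (27.9% of all guides). DESeq2 called 28 guides higher (17.7% of all guides) and 9 lower (18.8%) between the lines, where the cause was not tested, and 1 lower (27.8%) in SETD2-mutant cells. Without HZD_CTRLd_14117 the SD was 0.38 in parental cells and 0.43 between the lines, and the correlations were 0.640 between parental replicates and 0.494 for the line difference. Spearman's rho was 0.564, 0.679, 0.274 and 0.499 for parental replicates, SETD2-mutant replicates, between lines and the line difference.

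Leaving out each sample gave 37 to 71, 60 to 85 and 12 to 18 guides higher and 0 to 1, 0 to 1 and 3 to 4 lower. For those fits the share of all guides called is not given. The ranges of called guides therefore cannot be set against a background. Medians over the same fits were 0.65 to 0.74, 0.87 to 0.92 and 0.18 to 0.25, and SDs 0.42 to 0.47, 0.46 to 0.50 and 0.47 to 0.52. HZD_CTRLd_14106 in parental cells ranged from −0.31 without parental replicate 2 to 0.036 without parental replicate 1. The filters, DESeq2 size factors, library totals, limma and the fit of only the 2 groups changed no count by over 1.5 times. Replicate numbers pair no samples by the labels, and deviations of same-numbered samples correlated at −0.00513 between the lines over all guides. With the replicate block 68, 85 and 15 guides were higher and 1, 0 and 4 lower, with medians of 0.69, 0.88 and 0.25. The share of all guides called with the block is not given. With 2 samples a group, a guide that was not called is not shown to be unchanged.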
